A study of Mus musculus with 8 samples.

Results

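The histone genes, linker and core, were followed through the transition from mouse embryonic stem (ES) cells to epiblast-like aggregates (ELA), in total RNA and in RNA pulled down with ribosomes. The genes were chosen by symbol alone, as every gene of the deposited table whose name begins with Hist and a digit, H1f, H2af or H3f. This gave 6 of the 3160 genes. Of these, 2 are replication-dependent histones (Hist1h1a and Hist1h2af) and 4 are variant histones (H1f0, H2afv, H3f3a and H3f3b). The cells were the E14Tg2A line, a 129/Ola mouse ES cell line, so every sample came from 1 line. ES cells (day 0) grew on gelatin in medium with serum and the cytokine LIF, and ELA (day 2) were the same cells kept afloat as aggregates in a serum-free and LIF-free chemically defined medium. In all groups the cells were given cycloheximide, which stalls ribosomes on their mRNA, before lysis. From each lysate a part was kept as input (total RNA) and the rest went to immunoprecipitation with an antibody against the endogenous large-subunit ribosomal protein Rpl10a (Rpl10a-IP, ribosome-bound RNA), so that each of the 4 groups (ES input, ES Rpl10a-IP, ELA input, ELA Rpl10a-IP) had 2 libraries. Control immunoprecipitations with an antibody against GFP were not analysed here, so background pull-down was not measured.

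Core histones (H2A, H2B, H3 and H4) form the protein spool that DNA winds around, and linker histones (H1) bind where DNA enters and leaves it. The replication-dependent genes lie in clusters, have no introns, are made in S phase and give mRNAs that end in a stem-loop instead of a poly(A) tail, whereas variant histone genes have introns in most cases, give polyadenylated mRNAs and are expressed throughout the cell cycle and in cells that have stopped dividing. In ES cells, which cycle fast and spend much of their time in S phase, the demand for new histones is high. The sequencing libraries were made after removal of ribosomal RNA and not by capture of poly(A), so mRNAs of both kinds could be read.

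Hist1h1a encodes linker histone H1.1 and lies at chr13:23763668-23764412 of the mouse build GRCm38.p6 (RefSeq, which lists it as H1f1). Hist1h2af encodes a core histone H2A (RefSeq H2ac10) and lies in the same cluster at chr13:23533875-23534378. Among the variants, H1f0 (chr15:79028212-79030504) encodes linker histone H1.0, known from cells that leave the cycle and differentiate, and H2afv (RefSeq H2az2, chr11:6427226-6444511) encodes H2A.Z.2, an H2A variant found around promoters. H3f3a (chr1:180802560-180813605) and H3f3b (chr11:116021961-116026039) encode the same protein, histone H3.3, which can be put into chromatin outside S phase too.

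The feature that sets the first class apart can be read in the mRNA. The GENCODE transcript of Hist1h1a is 747 bases long and holds the histone stem-loop consensus once, starting at base 725 of the transcript, after 33 bases that follow the stop codon and with 7 bases after it. It is shown with its flanks, the stem and loop in capitals, because it marks a replication-dependent 3′ end:
Hist1h1a: ccaacGGCTCTTTTCAGAGCCaccaa
The same consensus was found in 44 of 67 genes with a Hist symbol (65.7%), in 0.385% of the 22611 protein-coding genes of that annotation, and in 8 of the 2979 genes of the deposited table that had a transcript there. No match was found in the transcripts of H2afv, H3f3a and H3f3b, and the annotated Hist1h2af transcript ends 1 base after its stop codon, so its 3′ end could not be searched. H1f0 had no protein-coding transcript in that annotation.

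Promoters are printed for the 3 members with higher total RNA in ELA (values below), each a window across an annotated transcript start, 5′ to 3′ on the strand of the gene, from RefSeq on GRCm38.p6. Capitals mark TATAAA (the TATA box core) and CCAAT (the core bound by the factor NF-Y), searched on both strands.
Hist1h1a (chr13:23763418-23763717, plus strand): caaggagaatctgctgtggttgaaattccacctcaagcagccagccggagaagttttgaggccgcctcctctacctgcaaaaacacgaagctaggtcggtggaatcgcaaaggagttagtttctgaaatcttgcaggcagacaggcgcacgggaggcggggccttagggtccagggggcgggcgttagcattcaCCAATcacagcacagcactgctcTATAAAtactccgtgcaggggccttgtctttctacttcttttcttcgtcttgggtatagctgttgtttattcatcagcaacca
H1f0 (chr15:79027962-79028261, plus strand): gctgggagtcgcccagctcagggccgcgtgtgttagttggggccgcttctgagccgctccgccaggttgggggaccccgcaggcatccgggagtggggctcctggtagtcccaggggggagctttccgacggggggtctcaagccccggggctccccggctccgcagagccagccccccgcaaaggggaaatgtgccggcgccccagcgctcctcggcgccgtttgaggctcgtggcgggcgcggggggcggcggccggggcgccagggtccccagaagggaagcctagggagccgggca
H3f3b (chr11:116024455-116024754, minus strand): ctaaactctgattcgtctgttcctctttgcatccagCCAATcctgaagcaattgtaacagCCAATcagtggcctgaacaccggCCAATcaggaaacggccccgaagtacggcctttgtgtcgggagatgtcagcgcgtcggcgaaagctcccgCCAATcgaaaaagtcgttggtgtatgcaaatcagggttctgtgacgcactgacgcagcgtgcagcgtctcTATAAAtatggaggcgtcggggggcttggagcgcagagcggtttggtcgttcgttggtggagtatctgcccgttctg
The H3f3b window lies inside the span given above for the gene, at a transcript start downstream of the outermost one. The Hist1h1a promoter held 1 TATAAA and 1 CCAAT, that of H3f3b held 1 and 4, and that of H1f0 held neither. Of 32851 promoters of the same length, 13.6% held TATAAA and 37.4% held CCAAT. In the H1f0 window 75% of the bases were G or C, against 52% for Hist1h1a and 55% for H3f3b.

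The table held between 3898414 and 5380139 reads per ES input library and between 16076207 and 23483388 per Rpl10a-IP library, but 159587 and 410192 in the ELA input libraries, replicates 1 and 2. These were the shallowest, and the study's methods leave replicate 1 out, so the members' fitted changes are also given without it. Ratios, ranks, length classes and gene lists use all 8 libraries where they rest on ELA input. The labels do not state that replicates came from separate cultures, so p-values measure the spread between these libraries, which may be technical. Naive ES markers (5 of 8 on the list were in the table) summed to 18266 to 18687 normalised counts in ES input and to 1982 to 2148 in ELA input, while epiblast-like markers (3 of 6) summed to 4637 to 4838 and to 21455 to 22946, in the direction of the labels. Of 9 markers of other cell types, 0 were in the table.

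Normalised counts are reads divided by a scaling factor per library (TMM, a trimmed mean of log ratios, with geometric mean 1 over the 8 libraries). Ribosome enrichment is the Rpl10a-IP over the input normalised count, and changes are given as log2 with the standard error (SE) of the fit and p-values adjusted over all 3160 genes, called under 0.05. As RNA came from whole cultures, fewer cells that express a gene and less RNA per cell cannot be told apart. All values are relative to the other genes of the table, whose median log2 lay between -0.0244 and 0.00836 in the 5 comparisons.

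Relative to total RNA, part of the histone mRNAs was poorly recovered with ribosomes in ES, and most of them were in ELA. In ES, 3 of the 6 members were lower in Rpl10a-IP than in input and 0 were higher, where 20.0% of all genes were lower and 19.5% higher. H1f0 is left out of the counts that rest on ELA input, since it passed the authors' filter through its ELA input level alone. In ELA the other 5 were all lower, where 37.2% of all genes were lower and 36.8% higher. With a correction for transcript length and GC content (below), which could be fitted for the same 5, 4 were lower in ELA and enrichment fell for 3. Without the correction, enrichment fell between the stages for all 5, where it fell for 27.7% of all genes and rose for 28.4%. Both replication-dependent members were below the table's median in each stage. Their median enrichment was -0.73 in ES and -2.82 in ELA on the log2 scale, against -0.16 and -1.43 for the 3 variants other than H1f0. These medians and the ES counts are uncorrected. With the correction Hist1h2af was called in neither stage.

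**Figure D1:**
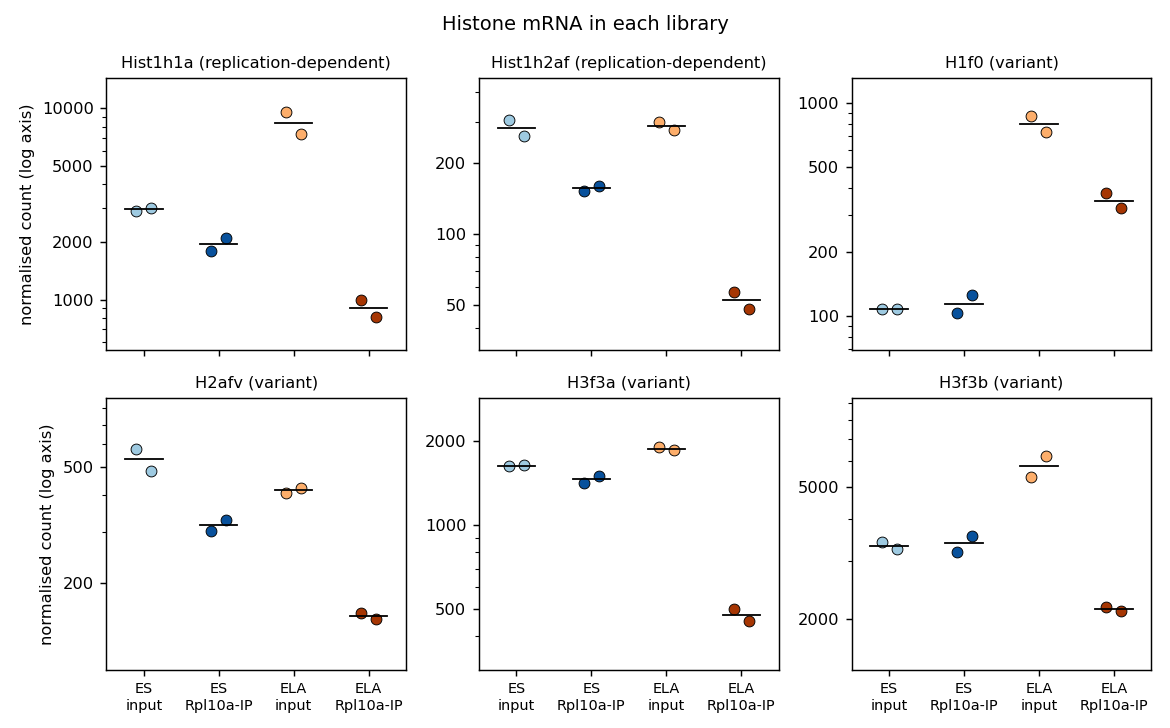
Normalised counts (reads over the TMM factor, log axis, with a scale of its own for each gene) of the 6 histone genes in each of the 8 libraries, the left point of a group being replicate 1, and lines marking group means. In ELA every Rpl10a-IP point lies below both input points, whereas in ES this holds for Hist1h1a, Hist1h2af, H2afv and H3f3a.

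Hist1h1a changed the most of the 6 in ribosome enrichment. Its normalised counts were 2916 and 3009 in ES input, 1791 and 2091 in ES Rpl10a-IP, 9543 and 7293 in ELA input (from 351 and 688 reads) and 998 and 816 in ELA Rpl10a-IP. ELA input was thus the highest group and ELA Rpl10a-IP the lowest, with no overlap between any groups. The ratio of ribosome-bound to total RNA was 0.654 ± 0.0572 in ES and 0.108 ± 0.00515 in ELA (SD, n = 2 each). As enrichment, this was -0.61 (SE 0.090, limma adjusted p = 5.53e-10) in ES and -3.21 (SE 0.12, adjusted p = 3.44e-21) in ELA, the second lowest of all genes. The fall in enrichment was 6.03-fold (log2 change -2.59, SE 0.17, adjusted p = 9.91e-14), again the second lowest of 3160, and was -2.40 without ELA input replicate 1. Total Hist1h1a RNA meanwhile rose 2.82-fold (1.49, SE 0.12, adjusted p = 4.07e-13) and ribosome-bound RNA fell by 1.10 on the log2 scale (SE 0.090, adjusted p = 3.33e-33). With the length and GC correction ribosome-bound Hist1h1a RNA turned to a rise of 0.40 (adjusted p = 0.000127).

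Hist1h2af, the core member of the class, fell in the ribosome-bound fraction while its total RNA did not pass the test. Normalised counts were 305 and 261 in ES input, 153 and 161 in ES Rpl10a-IP, 299 and 276 in ELA input (11 and 26 reads) and 57.2 and 48.5 in ELA Rpl10a-IP. The 2 input groups overlapped, and both Rpl10a-IP groups lay below them. The ratio of ribosome-bound to total RNA was 0.558 ± 0.0810 in ES and 0.183 ± 0.0109 in ELA (SD, n = 2 each). Enrichment was -0.85 in ES (SE 0.14, limma adjusted p = 5.26e-08) and -2.43 in ELA (SE 0.15, adjusted p = 7.40e-16), and it changed by -1.58 (SE 0.21, adjusted p = 1.96e-07). Total RNA differed by 0.02 (95% interval -0.28 to 0.33, adjusted p = 0.891), and ribosome-bound RNA fell by 1.56 (SE 0.14, adjusted p = 1.64e-27). No call among these held with the length and GC correction, under which enrichment was -0.099 in ES (adjusted p = 0.541) and -0.013 in ELA (adjusted p = 0.936), its change was 0.086 (adjusted p = 0.735), and total and ribosome-bound RNA rose, by 0.47 (adjusted p = 0.00474) and 0.56 (adjusted p = 0.000244).

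Reads of Hist1h2af are open to sharing with its relatives. Of the 350 windows of 50 bases in its transcript, 279 (79.7%) occur unchanged in transcripts of other genes, 22 in all, with Hist1h2ad sharing the most. In the mouse genome (build NCBIM37), 81.3% of its 32-base windows occur at more than 2 places, the number of hits above which the authors' alignment dropped a read. How far its values hold reads of other H2A genes was not tested. For Hist1h1a 0 of 698 windows of 50 bases were shared with another gene and 0.140% of the 32-base windows lay at more than 2 places.

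The variant linker histone H1f0 was higher in ELA in both fractions. Its normalised counts were 108 and 108 in ES input, 104 and 125 in ES Rpl10a-IP, 870 and 731 in ELA input (32 and 69 reads) and 377 and 321 in ELA Rpl10a-IP. Input and Rpl10a-IP overlapped in ES, and in ELA both Rpl10a-IP libraries lay between ES and ELA input. H1f0 passed the authors' floor on input, a mean of about 50 deposited counts in at least 1 stage, through ELA alone (26.6 and 27.4 in ES input, 199 and 173 in ELA input), so it could be in the table only if high in ELA. Its differences between the stages and its ELA enrichment, which has ELA input as the denominator, are therefore given as a description with no test. Total RNA was 7.32-fold higher in ELA (log2 change 2.87, SE 0.14) and ribosome-bound RNA 3.03-fold higher (1.60, SE 0.13). Enrichment was 0.08 in ES (95% interval -0.17 to 0.33, limma adjusted p = 0.665) and -1.20 in ELA (SE 0.14), a change of -1.27 (SE 0.20). The ratio of ribosome-bound to total RNA was 1.06 ± 0.140 in ES and 0.436 ± 0.00379 in ELA (SD, n = 2 each).

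The balance within the linker pair shifted in both fractions, which a ratio of reads within a library shows free of scaling, though with the same limit on the H1f0 level in ELA input. Hist1h1a had 27.0 and 27.8 reads for each H1f0 read in ES input and 11.0 and 9.97 in ELA input. In Rpl10a-IP the ratio was 17.2 and 16.7 in ES and 2.65 and 2.54 in ELA. The 4 groups did not overlap. In the shallowest library, ELA input replicate 1, Hist1h1a made up 91.6% of 383 linker reads (95% Wilson interval 88.4 to 94.0%), and in ELA Rpl10a-IP replicate 1 it made up 72.6% of 6925 (71.5 to 73.6%). These intervals cover counting error only.

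H3f3a and H3f3b, which encode the same H3.3 protein, both fell in the ribosome-bound fraction, and of the pair H3f3b rose in total RNA. H3f3b counts were 3411 and 3253 in ES input, 3195 and 3564 in ES Rpl10a-IP, 5383 and 6201 in ELA input (198 and 585 reads) and 2176 and 2107 in ELA Rpl10a-IP. Input and Rpl10a-IP overlapped in ES and were far apart in ELA. Its total RNA rose 1.73-fold (log2 change 0.79, SE 0.11, limma adjusted p = 3.97e-08) while its ribosome-bound RNA fell by 0.66 (SE 0.089, adjusted p = 3.42e-13). Enrichment was 0.02 in ES (95% interval -0.16 to 0.19, adjusted p = 0.890) and -1.43 in ELA (SE 0.11, adjusted p = 4.15e-14), a change of -1.45 (SE 0.15, adjusted p = 9.38e-10).

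H3f3a counts were 1628 and 1638 in ES input, 1420 and 1506 in ES Rpl10a-IP, 1903 and 1855 in ELA input (70 and 175 reads) and 501 and 456 in ELA Rpl10a-IP. ELA Rpl10a-IP lay well below the other groups. Total RNA differed by 0.20 (95% interval -0.02 to 0.42, limma adjusted p = 0.0977), and ribosome-bound RNA fell 3.05-fold (-1.61, SE 0.094, adjusted p = 9.08e-64). Enrichment was -0.16 in ES (SE 0.094, adjusted p = 0.171) and -1.97 in ELA (SE 0.11, adjusted p = 4.36e-17), a change of -1.81 (SE 0.15, adjusted p = 2.53e-11). The ratio of ribosome-bound to total RNA was 0.896 ± 0.0338 in ES and 0.255 ± 0.0125 in ELA for H3f3a and 1.02 ± 0.112 and 0.372 ± 0.0455 for H3f3b (SD, n = 2 each).

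The H3f3b share of the pair was higher in ELA in both fractions. It had 2.10 and 1.99 reads for each H3f3a read in ES input, 2.25 and 2.37 in ES Rpl10a-IP, 2.83 and 3.34 in ELA input and 4.34 and 4.62 in ELA Rpl10a-IP, and the groups did not overlap. In ELA input replicate 1, H3f3b made up 73.9% of 268 H3.3 reads (95% Wilson interval 68.3 to 78.8%), and in ELA Rpl10a-IP replicate 1 81.3% of 13488 (80.6 to 81.9%). These intervals too cover counting error only, and the study's methods note more PCR duplicates in the first of these libraries. H3f3a shares 22.0% of its 50-base windows with transcripts of 2 other genes, Gm10257 above all (19.1%), and 31.6% of its 32-base windows lie at more than 2 places of the genome, against 11.2% for H3f3b. At more than 1 place the shares are close, 33.5% for H3f3a and 31.3% for H3f3b. How many reads each gene lost or gained by this was not tested.

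**Figure D2:**
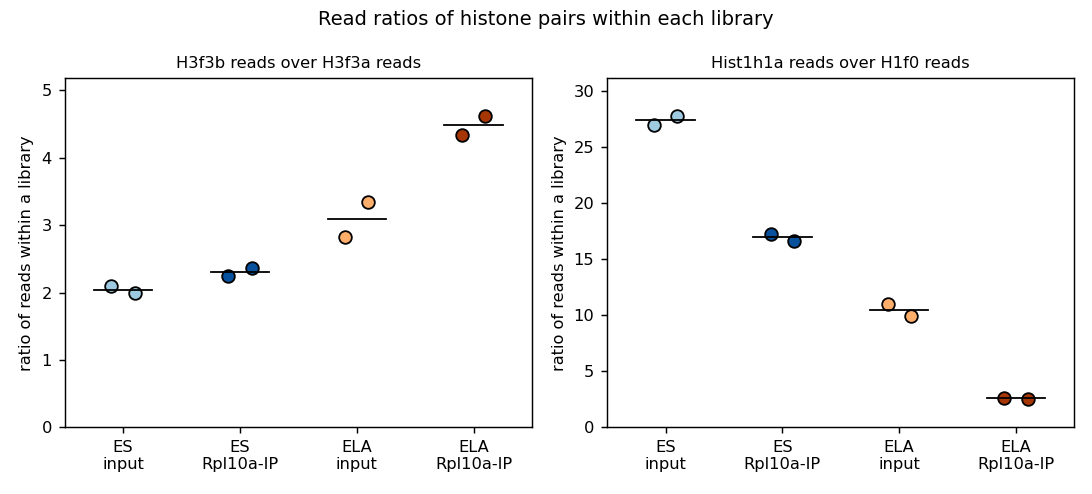
Ratio of reads within each library (linear axis) for H3f3b over H3f3a, left, and Hist1h1a over H1f0, right, with both replicates of each group as points and the mean as a line. The left ratio runs from 1.99 in ES input to 4.62 in ELA Rpl10a-IP, the right one from 27.8 to 2.54.

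H2afv was the variant with the smallest change in enrichment. Its normalised counts were 578 and 487 in ES input, 302 and 328 in ES Rpl10a-IP, 408 and 424 in ELA input (15 and 40 reads) and 157 and 150 in ELA Rpl10a-IP. The ELA input libraries lay below both ES input libraries, and in each stage Rpl10a-IP lay below input. It was already lower in Rpl10a-IP than in input in ES, where its log2 enrichment was -0.75 (SE 0.11, limma adjusted p = 1.57e-09). Enrichment in ELA was -1.43 (SE 0.13, adjusted p = 8.18e-12), a change of -0.68 (SE 0.18, adjusted p = 0.00219). Total RNA fell by 0.35 on the log2 scale (SE 0.13, adjusted p = 0.0172), a call lost without ES input replicate 1 (-0.23, adjusted p = 0.212), and ribosome-bound RNA fell by 1.03 (SE 0.11, adjusted p = 4.01e-19). With the length and GC correction the calls were lost for the change in enrichment (-0.28, adjusted p = 0.164), for ribosome-bound RNA (-0.20, adjusted p = 0.0733) and for total RNA, which turned to 0.081 (adjusted p = 0.557). The ratio of ribosome-bound to total RNA was 0.598 ± 0.107 in ES and 0.370 ± 0.0215 in ELA (SD, n = 2 each).

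**Figure D3:**
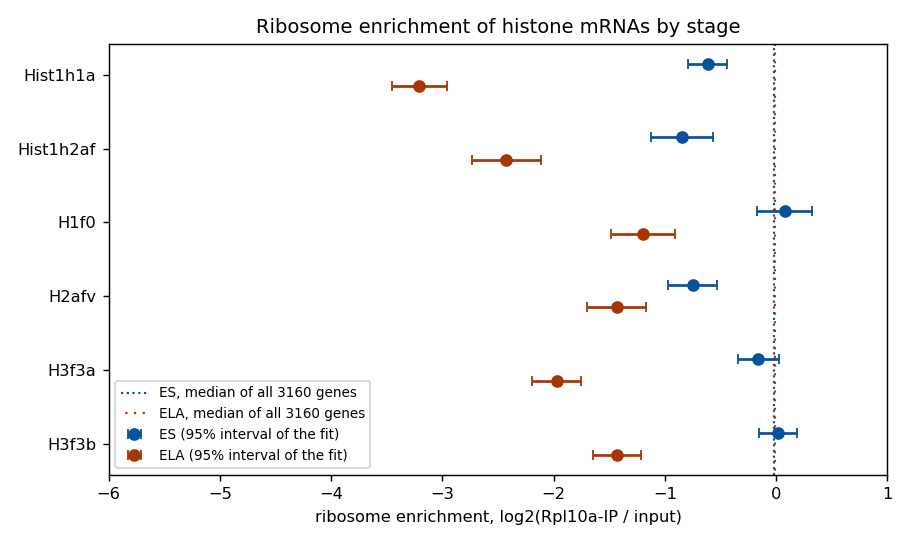
Ribosome enrichment, log2 of Rpl10a-IP over input, of each histone gene in ES (blue) and ELA (brown), with 95% intervals of the fit as bars and dotted lines at the median of all 3160 genes (-0.0190 in ES and -0.0119 in ELA). The ELA value lies to the left of the ES value for all 6 genes, from -0.75 to -1.43 for H2afv and from -0.61 to -3.21 for Hist1h1a.

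Counted over the 5 members other than H1f0, whose place in the table rests on its ELA input level, total RNA rose for 2 (Hist1h1a and H3f3b) and fell for 1 (H2afv), where 34.5% of all genes rose and 35.8% fell. Ribosome-bound RNA fell for all 5, where 41.1% of all genes rose and 42.3% fell. With the length and GC correction 2 of these 5 turned to rises (Hist1h1a and Hist1h2af) and H2afv lost its call. With 2 libraries a group, the adjusted p-values may be too small, as the table holds only genes whose replicate ratios lay close together, and in the fit without ELA input replicate 1 every gene was given the spread of the common trend. Without that library these 5 kept their calls for ELA enrichment (-3.01 for Hist1h1a to -1.46 for H2afv) and for the change in enrichment (-2.40 for Hist1h1a to -0.71 for H2afv). Total RNA was then 1.30 for Hist1h1a, 0.90 for H3f3b and -0.32 for H2afv (limma adjusted p = 0.0295), and it did not pass for H3f3a (0.18, adjusted p = 0.141) or Hist1h2af (-0.034, adjusted p = 0.865).

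The classes overlapped gene by gene. For the change in enrichment the median was -2.09 over the 2 replication-dependent genes (-2.59 and -1.58) and -1.36 over the 4 variants (-1.81 to -0.68), a difference of -0.72 (-0.78 and -0.67 in libraries numbered 1 and 2, SD 0.082, n = 2). Over the 5 members other than H1f0 the difference was -0.64, which turned to 0.28 with the length and GC correction. H3f3a, a variant, lay below Hist1h2af. Without H1f0 the class medians were 0.76 and 0.20 for total RNA and -1.33 and -1.03 for ribosome-bound RNA. With 2 and 4 genes, of which several may share reads with relatives, no test of the classes was made.

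Both replication-dependent mRNAs are short, and short transcripts as a whole moved the same way. The change in enrichment had a median of -1.05 over the 83 genes with transcripts of up to 1000 bases, -0.37 over 397 of 1000 to 2000, -0.10 over 1178 of 2000 to 4000, 0.21 over 1091 of 4000 to 8000 and 0.63 over 230 longer ones. Within their length classes, 1 of 83 genes lay below Hist1h1a (747 bases) and 12 of 83 below Hist1h2af (399 bases). Of the variants, H3f3a (2841 bases) had 5 of 1178 genes below it, H3f3b (2514 bases) 24 of 1178 and H2afv (1636 bases) 140 of 397. Hist1h1a, H3f3a and H3f3b thus stood near the bottom of their length classes.

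**Figure D4:**
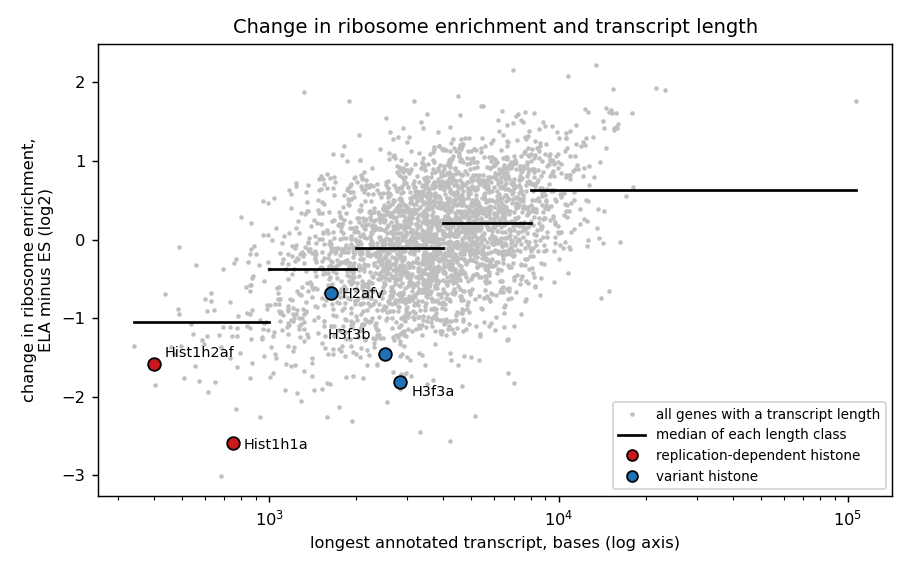
Change in ribosome enrichment (log2, ELA minus ES) against the length of the longest annotated transcript (log axis) for the 2979 genes with one, grey, with class medians as black lines, replication-dependent histones in red and variants in blue (H1f0 has no length). Medians go from -1.05 in the shortest class to 0.63 in the longest, with Hist1h1a at -2.59 near the lower edge of the plot.

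When the part of each library's values that follows length and GC content was taken out by a smooth curve (2979 genes, 5 members), the change in enrichment kept its call for Hist1h1a (-1.72), H3f3a (-1.50, limma adjusted p = 3.78e-08) and H3f3b (-1.10, adjusted p = 6.10e-07). It lost it for H2afv (-0.28, adjusted p = 0.164) and Hist1h2af (0.09, adjusted p = 0.735), and the difference between the classes over these 5 turned from -0.64 to 0.28. Total RNA of H3f3a passed the test (0.23, adjusted p = 0.0486). Of the 2979 genes, 2 have transcripts as short as that of Hist1h2af, itself included, so the curve is poorly held there. The correction was added after the data were seen, and its planned form, with the replicate number as a block, gave the same values.

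Other short mRNAs give a scale for these values. Among the 41 cytosolic ribosomal protein genes of the table, enrichment fell between the stages for 38 and rose for 0, with a median change of -1.11, and among 81 other genes with transcripts of up to 1000 bases it fell for 62 and rose for 1, with a median of -1.02. In total RNA, however, these 81 genes fell for the most part (58 lower, 4 higher, median -0.55), whereas Hist1h1a rose and had 82 of the 83 genes of its length class below it. Hist1h2af had 71 of 83 below it in total RNA.

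Levels per 1000 bases of transcript put Hist1h1a first in total RNA of both stages. In ES input it had 3966 ± 88.2 normalised counts per 1000 bases (SD, n = 2, as for the values that follow), followed by H3f3b (1326 ± 44.5), H3f3a (575 ± 2.33) and H2afv (326 ± 39.2). In ELA Rpl10a-IP the order was Hist1h1a (1214 ± 172), H3f3b (852 ± 19.3), H3f3a (169 ± 11.3) and H2afv (93.9 ± 2.88). Hist1h2af was given no place, since its annotated transcript stops at the end of the coding sequence while its RefSeq locus is 504 bases long.

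Genes that process histone mRNA or carry histones moved in both directions. Of 7 genes for processing and decay of histone mRNA (of 18 listed), enrichment rose for 3 and fell for 2, with a median of 0.22, where it rose for 28.4% and fell for 27.7% of all genes. Lsm11, a part of the U7 particle that cuts the histone 3′ end, fell (-1.12, limma adjusted p = 9.56e-05), while Cpsf2, a partner of the cutting nuclease, rose (0.74, adjusted p = 0.000127), as did Zfp473, a zinc finger protein of the same complex (0.71, adjusted p = 0.00102), and the cap-binding gene Ncbp1 (0.67, adjusted p = 0.000311). In total RNA Lsm11 rose as Hist1h1a did, by 1.65 (SE 0.16), from 90.2 and 100.2 normalised counts to 326 and 276 in ELA input, on 12 and 26 reads. Zfp473 fell in total RNA (-1.41, SE 0.13, limma adjusted p = 4.37e-12). Of the 7 genes, total RNA rose for 2 and fell for 1, where 34.5% of all genes rose and 35.8% fell.

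Of 14 histone chaperone and deposition genes (of 35 listed), enrichment rose for 6 and fell for 4, with a median of 0.22, against the same 28.4% and 27.7% of all genes. The genes that fell furthest were Asf1a, a chaperone of H3 and H4 (-1.41, limma adjusted p = 2.93e-08), Nap1l1, a chaperone of H2A and H2B (-1.20, adjusted p = 1.22e-08), and Set, a related chaperone (-1.20, adjusted p = 3.58e-09). Ep400, the ATPase of a complex that places H2A.Z and H3.3, rose (1.38, adjusted p = 1.29e-08). Of 18 S-phase genes (of 32 listed), enrichment rose for 12 and fell for 2 (median 0.48; all genes 28.4% and 27.7%), the replicative helicase subunits Mcm6 (1.17), Mcm4 (1.09), Mcm7 (0.96) and Mcm5 (0.95) among the first. Their total RNA fell for 13 and rose for 0 (median -0.43), where it fell for 35.8% and rose for 34.5% of all genes, whereas that of the replication-dependent histones rose for Hist1h1a and differed by 0.02 for Hist1h2af (0.47 with the length and GC correction).

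Across the 8 libraries, the 5 genes with the profile most like the mean of Hist1h1a and Hist1h2af were Cenpa (Pearson r = 0.999), Gins2 (0.998), Pcbp1 (0.994), Fam32a (0.992) and Hmgn2 (0.992). Cenpa encodes the histone H3 variant of centromeres, Gins2 a subunit of the replicative helicase and Hmgn2 a nucleosome-binding protein. The points share libraries and their depth, so these values describe likeness only. In Cenpa, enrichment was -0.42 in ES and -1.63 in ELA, and the log2 difference between ELA and ES was 0.42 in total RNA and -0.79 in ribosome-bound RNA.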

How the data were processed

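Total RNA (input) and Rpl10a-bound RNA of E14Tg2A ES cells and ELA were compared in 8 libraries, 2 per group. Per the study's methods, the authors prepared libraries with ScriptSeq v2 after Ribo-Zero depletion, aligned reads to mm10 with TopHat2 (reads with more than 2 hits dropped), counted them per gene with htseq-count and divided the counts by DESeq2 size factors. The strand setting of counting is not given in the sources used here. The deposited values (unit: signal) are these size-factor-scaled counts, in a table of 3160 genes that the authors filtered on mean input (the lowest larger stage mean is 50.0) and on SD over mean of the IP/input ratio (at most 0.1995 in ES and 0.1998 in ELA). Its 26 other columns, the authors' means, SDs, ratios and fold changes, were not used.

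Each library's values were whole multiples of 1 step (100% within 0.001), from which reads were read back (so read numbers, read ratios and intervals rest on this inference) and rescaled by TMM (trimming 30% of M and 5% of A). Tests used limma 3.58.1 in R 4.3.3 (lmFit, eBayes with trend) on log2(normalised count + 1), which understates changes of low genes, with Benjamini-Hochberg adjustment over all 3160 genes in each of 5 comparisons, checked on simulated data. All 8 libraries were used, except that ES enrichment and ribosome-bound RNA used 7, without ELA input replicate 1, as in the study's methods. The change in enrichment is the interaction term. Count models were planned as alternatives and were not run, since the deposited unit is not a count.

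Members were named in full, and for each other list up to 4 called genes with the largest change in enrichment. The members, lists and tests were chosen with earlier results of these data known. Transcript lengths are from GENCODE vM1 (build NCBIM37), the design's RefSeq transcripts not being at hand, and coordinates and promoters from RefSeq GRCm38.p6. Alternatives covered scaling, pseudocount, low reads, pairing, length with GC, and each library left out.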

Additional observations from a re-analysis of the deposited data

Results flagged for a closer look

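For each of the 5 histone genes other than H1f0 (where 27.7% of all genes fell and 28.4% rose) the difference between the stages in ribosome enrichment passed the interaction test in limma. The log2 change in enrichment, ELA minus ES, was -2.59 for Hist1h1a, -1.81 for H3f3a, -1.58 for Hist1h2af, -1.45 for H3f3b, -1.27 for H1f0 and -0.68 for H2afv. With the length and GC correction the call was lost for Hist1h2af (0.086, limma adjusted p = 0.735) and H2afv (-0.28, adjusted p = 0.164), and H1f0 could not be fitted. H1f0 entered the table through its ELA input level alone, which is the denominator of its ELA ratio, so its value is a description. No cause was tested.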

How the results depend on the processing

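Other scalings (median-of-ratios, total reads, the deposited factors) and pseudocounts of 0.1 and 5 were tried. So were a minimum mean of 10 reads in ELA input, and all 8 libraries where the main fit used 7. Under each of these settings 3 of the 6 members were called for ES enrichment. H1f0 is left out of the other counts, since its place in the table rests on its ELA input level. The remaining 5 members were all called under each setting in ELA enrichment, in the ribosome-bound fraction and in the change between stages. In total RNA the main fit called 2 rises and 1 fall among these 5, and with total reads H3f3a passed too. Fits with 1 library left out are given below by effect size only. With length and GC correction, with or without the replicate block, 3 of 5 fitted members were called for the change in enrichment. For ELA enrichment, total RNA and ribosome-bound RNA 4 of 5 were called. In ribosome-bound RNA Hist1h1a and Hist1h2af were called as rises and the other called members as falls. The share of all genes called under the correction is not given here, so these counts stand without it. With the correction the difference between the classes was 0.28, against -0.64 for the same 5 members uncorrected (members without H1f0, chosen after seeing the data). Over all 6 members, H1f0 included, the uncorrected difference was -0.72. With 1 library left out it ranged from -0.84 (without ELA input replicate 2) to -0.61 (without ELA input replicate 1). The same correction gave a change in enrichment of 0.086 for Hist1h2af, ribosome-bound RNA of 0.40 for Hist1h1a and 0.56 for Hist1h2af, total RNA of 0.081 for H2afv and ES enrichment of -0.089 for H3f3b.

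Values near 0 that did not pass the test changed sign. ES enrichment of H3f3b was -0.00054 with total reads. With 1 library left out it ranged from -0.060 (without ES Rpl10a-IP replicate 2) to 0.097, and that of H1f0 from -0.058 (without the same library) to 0.21. Total RNA of Hist1h2af was -0.073 with the deposited factors and ranged from -0.086 (without ES input replicate 2) to 0.13 with 1 library left out, and once corrected for length and GC it passed the test (0.47, limma adjusted p = 0.00474), as did that of H3f3a (0.23, adjusted p = 0.0486). Total RNA of H3f3a passed the test with total reads (0.26, limma adjusted p = 0.0333). The deposited factors moved the median gene by -0.098 in total RNA and -0.112 in ribosome-bound RNA, and total reads moved it by -0.111 in ELA enrichment. As the deposited factors were set apart for input and IP, enrichment under them was centred on the median gene. The cause of these moves was not tested.

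The labels give groups the same replicate numbers but do not say that they pair. Deviations of same-numbered libraries correlated with r = 0.170 (ES input and IP), 0.504 (ELA input and IP), 0.153 (both inputs) and -0.0246 (both IPs) across genes, which are not independent replicates. The replicate block alone changed no count of members called (for the change in enrichment, all 5 members other than H1f0). The planned count models and the placing of H2afx, which is no member here, were not run. Depth limits ELA input most, where Hist1h2af had 11 and 26 reads and H2afv 15 and 40.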
